A study of Mus musculus with 16 samples.

Results

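The transcripts described here encode 2 protein-folding chambers: the 8 subunits of the cytosolic chaperonin CCT (Tcp1, Cct2, Cct3, Cct4, Cct5, Cct6a, Cct7 and Cct8) and the mitochondrial HSP60 pair, Hspd1 and Hspe1. They were chosen as the non-control spots named for one of these 10 genes. That gave 12 of the 55681 distinct probes, and 10 of the 34741 gene or feature names on the array. Features without a gene symbol are among those names. Counts and shares of all genes below include such features too, except in the search for genes of similar pattern. Hspe1 had 3 probes and each other gene had 1. The cells were splenic B cells of AM14 mice, a strain with an antigen receptor directed at IgG. They came from mice lacking both Tlr7 and Tlr9 (the double knockout), mice lacking Tlr9, mice lacking Tlr7 and wild-type (WT) mice. All groups share the AM14 receptor background. Tlr7 encodes an endosomal receptor for RNA and Tlr9 one for DNA, and PL2-3 is a monoclonal antibody against nucleosomes, which brings chromatin to the AM14 receptor. Unstimulated cells gave the 0 h samples, and cells kept with PL2-3 were sampled at 6, 24 and 42 h, with 1 Agilent 2-colour array for each genotype at each time, 16 in all. The sources used here do not state the age or sex of the mice, the PL2-3 dose or whether a sample pooled several mice. No culture without PL2-3 was analysed here, so the effects of PL2-3 and of culture time cannot be told apart.

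Chaperonins are barrel-shaped complexes that enclose a non-native protein and let it fold apart from other proteins, using ATP. CCT, also called TRiC, is built from 8 different but related subunits, of which the zeta subunit also has a testis form, Cct6b, and its best-known clients are actin and tubulin, which cannot fold without it. HSP60, encoded by Hspd1, forms the chamber of the mitochondrial matrix, and HSP10, encoded by Hspe1, is the lid that closes it over imported proteins. Activated B cells enlarge before they divide and make cytoskeleton, ribosomes and mitochondria as they do so.

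Hspd1 and Hspe1 stand head to head on mouse chromosome 1, and the DNA between their starts is shown because it is shared by both HSP60 genes. RefSeq (build GRCm38.p6) gives 2 starts for Hspd1, on the minus strand. The inner one, at 55087932, lies 216 bases from the Hspe1 start at 55088148 on the plus strand, and the outer one, at 55088243, lies 95 bases inside Hspe1. The sequence between the inner Hspd1 start and the Hspe1 start is given on the plus strand, with 2 overlapping matches to a heat shock element in capitals.
Hspd1-Hspe1 interval, chr1:55087933-55088147: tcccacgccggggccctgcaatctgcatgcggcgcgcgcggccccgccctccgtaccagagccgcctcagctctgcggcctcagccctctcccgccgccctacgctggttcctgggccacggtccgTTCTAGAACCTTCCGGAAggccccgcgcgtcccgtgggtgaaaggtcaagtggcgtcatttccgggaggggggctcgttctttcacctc
The element was searched as 3 alternating units, TTCNNGAANNTTC on the plus strand or GAANNTTCNNGAA, its reverse complement. Heat shock factors bind repeats of this kind. It occurred in 0.603% of 32851 RefSeq promoter windows of 300 bases and in 2 of the 12 windows of these genes, the inner Hspd1 window and the Hspe1 window, which overlap here and hold the same 18 bases. None of the windows of the 7 CCT genes that have one held it, and Cct4 had no window. The E-box CACGTG occurred in 7.15% of all windows and in 1 of the 12, that of the outer Hspd1 start. The letters CCAAT, on either strand, occurred in 37.4% of all windows and in 5 of the 12, at the outer Hspd1 start, Cct3, Cct6a, Cct7 and Tcp1. A match is a description of the letters and not a binding site.

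Each level below is the log2 of the sample's signal (Cy5) over that of a common pool made of unstimulated B cells of all genotypes (Cy3), so 0 is the level of the pool. On the mm9 build of the array design the main Hspd1 probe lies at chr1:55134697-55134756, the Hspe1 probe at chr1:55148026-55148085, the Cct6a probe at chr5:130300316-130300375 and the Tcp1 probe at chr17:13116096-13116155. The main probes of all 10 genes were well above background in both colours on all 16 arrays. Over the arrays, 37.4% to 62.7% of spots were well above background in Cy5, the lowest share being that of the Tlr9 knockout at 0 h. Double knockout and Tlr9 knockout arrays shared slide 2, and Tlr7 knockout and WT arrays shared slide 1, so the lack of Tlr9 and the slide cannot be told apart. Both bright Tlr7 probes were lower in the 2 genotypes lacking Tlr7 than in the others at 4 of 4 times. The Tlr9 probe did so at 1 of 4, and whether it lies in the deleted stretch is not given. The 5 B cell marker genes used (Cd79a, Cd79b, Ms4a1, Cd22 and Pax5) were well above background on every array. Their median level was -2.92 to -1.36 on the stimulated arrays, against -0.06 to 0.26 on the 0 h arrays. Of the markers of erythroid, myeloid, T and NK cells, 7 of 8, 9 of 10, 5 of 7 and 5 of 6 fell by 6 h and 1 T cell marker rose. Of all genes 23.9% fell by then. With median centring in place of loess normalization 3, 9, 3 and 4 of these markers fell by 6 h. Between 3 and 10 of each list were well above background on an array. In bulk RNA, fewer cells of a type and less RNA per cell cannot be told apart. The part of these shifts in the chaperonin values was not tested.

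The first question was whether the chaperonin genes change when AM14 B cells meet PL2-3 and still have at least 1 of the 2 receptors. Fitted across Tlr9 knockout, Tlr7 knockout and WT cells, all 10 genes rose by 6 h and were still higher than at 0 h after 24 and 42 h. The CCT subunits rose 2.5-fold to 3.73-fold at 6 h, and Hspd1 rose most, 6.01-fold. The HSP10 gene and 1 CCT subunit peaked late: Hspe1 and Tcp1 were highest at 24 h in each of the 3 genotypes, and the other 8 genes at 6 h. These changes come from limma fits of the 12 arrays of the 3 genotypes, with genotype as a term and 6 residual degrees of freedom, so the genotypes stand in for replicates. Among 22492 genes tested, 22.9% rose and 23.9% fell by 6 h, 22.7% rose and 26% fell by 24 h, and 17.3% rose by 42 h at a Benjamini-Hochberg adjusted p under 0.05, and the median gene changed by 0.00, 0.01 and 0.00 log2. Of 12892 genes well above background on every array of the fit, 66.2%, 68.2% and 57.9% were called at 6, 24 and 42 h. Of those calls 45.8%, 43.7% and 43.2% were rises.

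**Figure D1:**
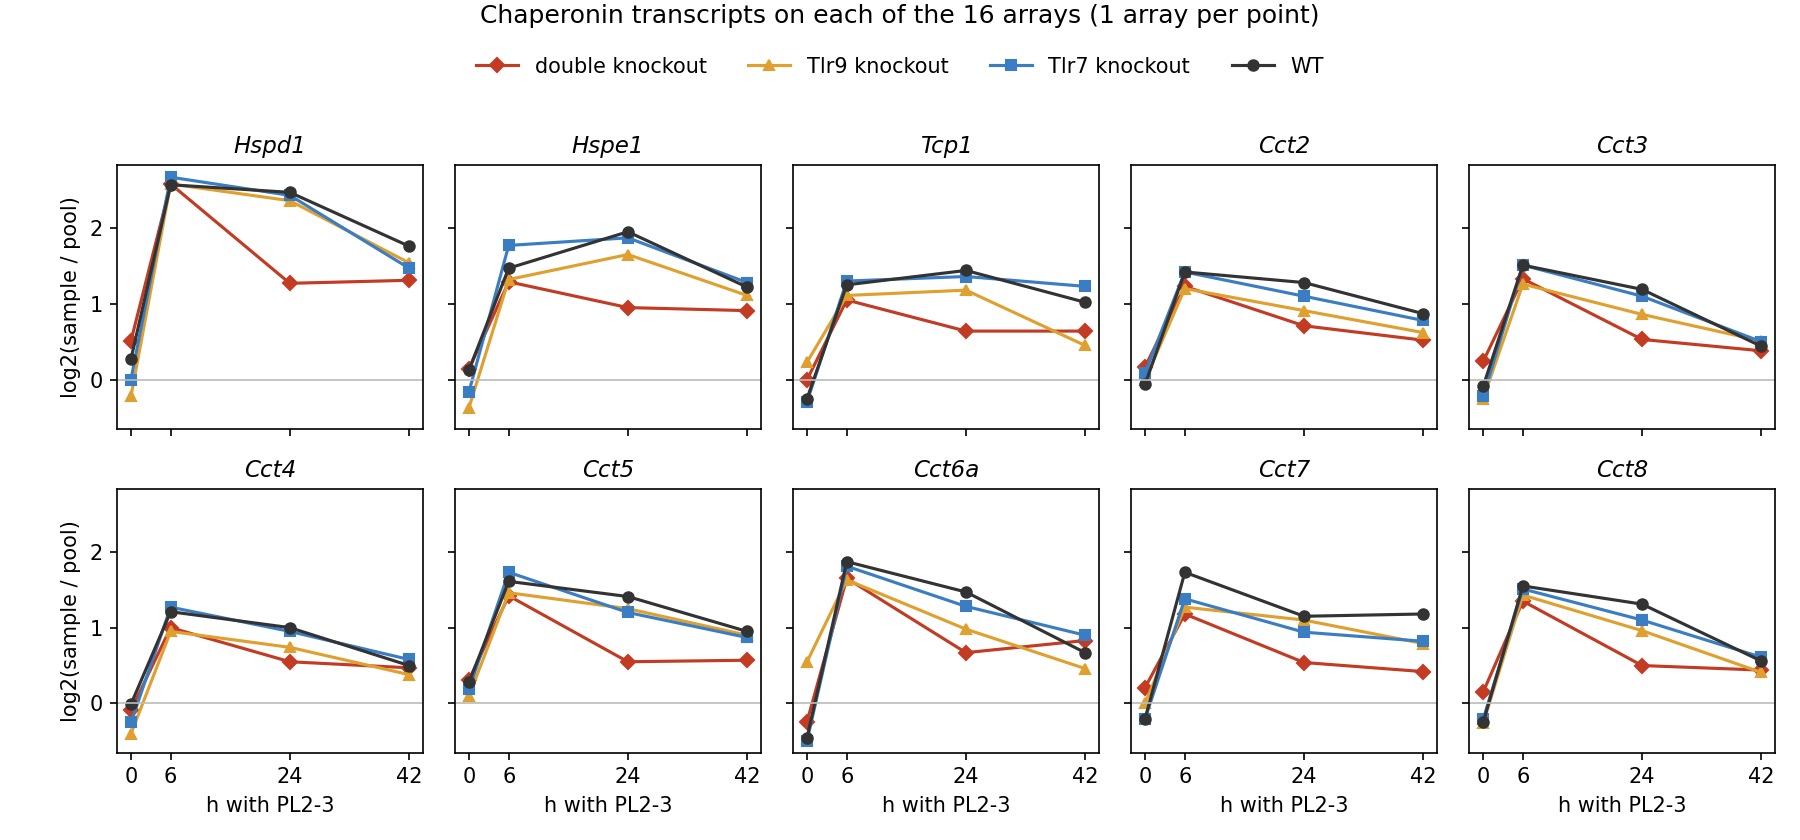
Level of each gene (log2 of sample over pool) against hours with PL2-3, 1 panel per gene and 1 line per genotype, each point 1 array. All lines climb between 0 and 6 h, and at 24 h the double knockout is the lowest of the 4 in every panel.

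Hspd1, the HSP60 chamber subunit, showed the largest change. In Tlr9 knockout cells its level was -0.22, 2.58, 2.36 and 1.54 at 0, 6, 24 and 42 h. In Tlr7 knockout cells it was 0.00, 2.67, 2.43 and 1.47, and in WT cells 0.27, 2.57, 2.47 and 1.76. The 9 stimulated values all lay above the 3 unstimulated ones, and at 6 and 24 h the 3 genotypes lay close together (SD 0.06 and 0.05). The log2 change was 2.59 ± 0.11 (SE) at 6 h (limma adjusted p = 2.85e-07), 2.40 ± 0.11 at 24 h (adjusted p = 7.63e-07) and 1.57 ± 0.11 at 42 h (adjusted p = 1.21e-05). Of all genes tested, 0.889% had a change at 6 h as high as that of Hspd1 or higher.

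Hspe1, the HSP10 lid, rose less than its partner at 6 h and came closer to it later. Its level was -0.37, 1.32, 1.65 and 1.11 in Tlr9 knockout cells, -0.16, 1.77, 1.87 and 1.28 in Tlr7 knockout cells and 0.13, 1.47, 1.95 and 1.22 in WT cells. Each genotype was highest at 24 h, and no stimulated value reached down to an unstimulated one. The log2 change was 1.65 ± 0.11 at 6 h (limma adjusted p = 3.12e-06), 1.96 ± 0.11 at 24 h (adjusted p = 2.25e-06) and 1.33 ± 0.11 at 42 h (adjusted p = 3.3e-05). The 2 bright Hspe1 probes, which overlap by 57 of their 60 bases with 1 difference, gave 1.65 and 1.66 at 6 h. The third, dim Hspe1 probe gave 1.51 ± 0.36 at 6 h and 2.06 ± 0.36 at 24 h.

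The 8 CCT subunits all rose by 6 h, Tcp1 on a later course than most. Their median level was 1.27, 1.46 and 1.53 at 6 h in Tlr9 knockout, Tlr7 knockout and WT cells, against 0.00, -0.22 and -0.14 at 0 h. At 24 h the medians were 0.97, 1.10 and 1.29, and at 42 h 0.48, 0.80 and 0.77. All 8 passed the test at each time, with a median log2 change of 1.50 at 6 h, 1.22 at 24 h and 0.76 at 42 h. Cct6a, the zeta subunit, had the highest estimate at 6 h, 1.90 ± 0.27 (limma adjusted p = 2.92e-04), and also the widest error of the 8. Tcp1, the alpha subunit, had the lowest, 1.32 ± 0.20 (adjusted p = 4.42e-04).

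Cct8, the theta subunit, had an SD over the 3 genotypes of 0.03 at 0 h and 0.06 at 6 h. Its level was -0.26, 1.43, 0.96 and 0.41 in Tlr9 knockout cells, -0.21, 1.51, 1.10 and 0.61 in Tlr7 knockout cells and -0.25, 1.55, 1.31 and 0.56 in WT cells. The genotypes lay close together at 0 and 6 h and spread out by 24 h, in the order Tlr9 knockout, Tlr7 knockout and WT from low to high. The log2 change was 1.74 ± 0.09 at 6 h (limma adjusted p = 6.82e-07), 1.37 ± 0.09 at 24 h and 0.77 ± 0.09 at 42 h.

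The other 5 subunits had the same outline. Cct3, the gamma subunit, was -0.25, 1.26, 0.86 and 0.51 in Tlr9 knockout cells, -0.22, 1.51, 1.10 and 0.50 in Tlr7 knockout cells and -0.09, 1.51, 1.19 and 0.44 in WT cells. Cct7, the eta subunit, was 0.00, 1.27, 1.10 and 0.79, then -0.20, 1.38, 0.94 and 0.82, and -0.20, 1.73, 1.15 and 1.18 in Tlr9 knockout, Tlr7 knockout and WT cells. The WT value of Cct7 was the highest of the 3 genotypes at each stimulated time. Cct5, the epsilon subunit, was 0.10, 1.46, 1.25 and 0.90 in Tlr9 knockout cells, 0.19, 1.73, 1.20 and 0.87 in Tlr7 knockout cells and 0.28, 1.61, 1.41 and 0.95 in WT cells. For each of the 3 genes the lowest stimulated value lay above the highest unstimulated one. At 6 h Cct3 rose by 1.61 ± 0.10, Cct7 by 1.59 ± 0.13, Cct5 by 1.41 ± 0.09, Cct4 (delta) by 1.36 ± 0.09 and Cct2 (beta) by 1.34 ± 0.10 (limma adjusted p between 1.39e-06 and 6.61e-06). At 42 h the same 5 were 1.59-fold to 2.09-fold their 0 h level, Cct7 being the highest and Cct3 the lowest of all 8 subunits.

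Tcp1 followed a later course than most other subunits. Its level was 0.23, 1.11, 1.18 and 0.45 in Tlr9 knockout cells, -0.29, 1.30, 1.36 and 1.23 in Tlr7 knockout cells and -0.25, 1.25, 1.44 and 1.02 in WT cells. The Tlr9 knockout array stood apart at both ends, with the highest value at 0 h and the lowest at 42 h. The log2 change was 1.43 ± 0.20 at 24 h (limma adjusted p = 3.01e-04) and 1.004 ± 0.202 at 42 h (adjusted p = 0.00362).

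**Figure D2:**
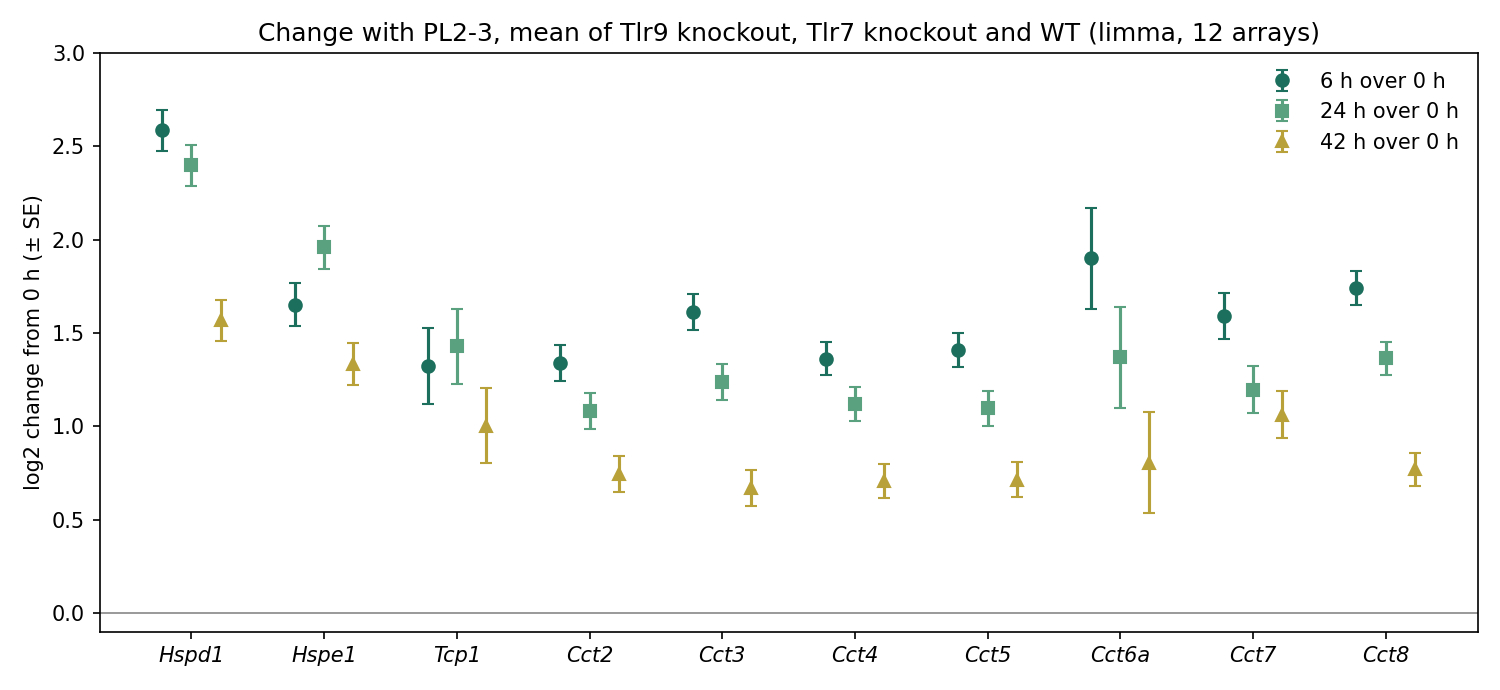
Log2 change from 0 h of each gene at 6, 24 and 42 h with PL2-3 (limma, 12 arrays of Tlr9 knockout, Tlr7 knockout and WT, points with SE). Hspd1 stands highest at each time, 2.59, 2.40 and 1.57, and most subunits step down at each later time.

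The fall after the 6 h point was uneven among the genes. Between 6 and 24 h, 4 genes fell: Cct7 by 0.39 ± 0.13, Cct3 by 0.38 ± 0.10, Cct8 by 0.38 ± 0.09 and Cct5 by 0.31 ± 0.09 (limma adjusted p = 0.0388, 0.0152, 0.0112 and 0.0273, with 18% of all genes lower, and 26.9% of those well above background on every array). Hspd1 differed by -0.19 ± 0.11 (adjusted p = 0.236), Tcp1 by 0.10 ± 0.20 (adjusted p = 0.755) and Hspe1 by 0.31 ± 0.11 (adjusted p = 0.0701), so the late peaks of Tcp1 and Hspe1 did not pass the test against 6 h. Between 24 and 42 h, 6 genes fell, against 3.57% of all genes and 6.1% of those well above background on every array: Hspd1 by 0.83 ± 0.11, Hspe1 by 0.62 ± 0.11, Cct8 by 0.60 ± 0.09, Cct3 by 0.57 ± 0.10, Cct4 by 0.41 ± 0.09 and Cct5 by 0.38 ± 0.09 (limma adjusted p between 0.0133 and 0.0464). No fall passed the test between 6 and 24 h without WT or without the Tlr7 knockout, or with the scanner software's processed signals. None passed between 24 and 42 h in those settings either, nor with scale normalization, with all 4 genotypes in the fit or without the WT array at 42 h alone. With median centring in place of loess, 1 gene was called between 6 and 24 h, and it was higher, and 10 fell between 24 and 42 h, where 20.7% of all genes fell in that setting.

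The size of the rise depended on the within-array normalization more than its direction did. With median centring the CCT median was 2.41 at 6 h and 2.37 at 24 h, the median of all genes 0.225 and 0.227, and the share of rises among the called genes of the whole array 75.7% and 77%, against 49% and 46.6% with loess. At 42 h the CCT median was 1.29 with median centring and the share of rises 58.5%, against 45.6% with loess, and between 24 and 42 h that share was 0.938%, against 37%. The estimates of all 10 genes stayed above 0 at 6, 24 and 42 h under every setting tried, though Cct6a at 42 h (adjusted p = 0.042) did not pass in 7 of them and at 24 h in 2 (without WT and with scale normalization), and had 1.25 without the Tlr9 knockout array at 0 h.

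The same genes were then followed in cells with neither receptor. In double knockout cells all 10 transcripts were higher at 6 h than at 0 h, and at 24 h less of that rise was left than in the other genotypes for 9 of the 10. At 24 h all 10 genes were lower in the double knockout than in each of the other 3 genotypes, an order that 33.2% of 23515 genes showed. At 0 h none were lower (24.9% of all genes) and 7 were higher than in each of the others (23.3%). At 6 h 5 were lower (28.3%) and at 42 h 6 (24.2%). Over all probes, the log2 ratios of the double knockout array spread less at 24 h, with an SD of 0.447. It was 0.648, 0.629 and 0.63 in Tlr9 knockout, Tlr7 knockout and WT at that time. The part of this narrower spread in the 24 h order and in the 24 h differences below was not tested. All 10 double knockout genes were highest at 6 h. The median change from the genotype's own 0 h array was 1.10, 0.58 and 0.45 at 6, 24 and 42 h in the double knockout. It was 1.35, 1.13 and 0.77 in the Tlr9 knockout, 1.65, 1.32 and 0.92 in the Tlr7 knockout and 1.55, 1.46 and 1.01 in WT.

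**Figure D3:**
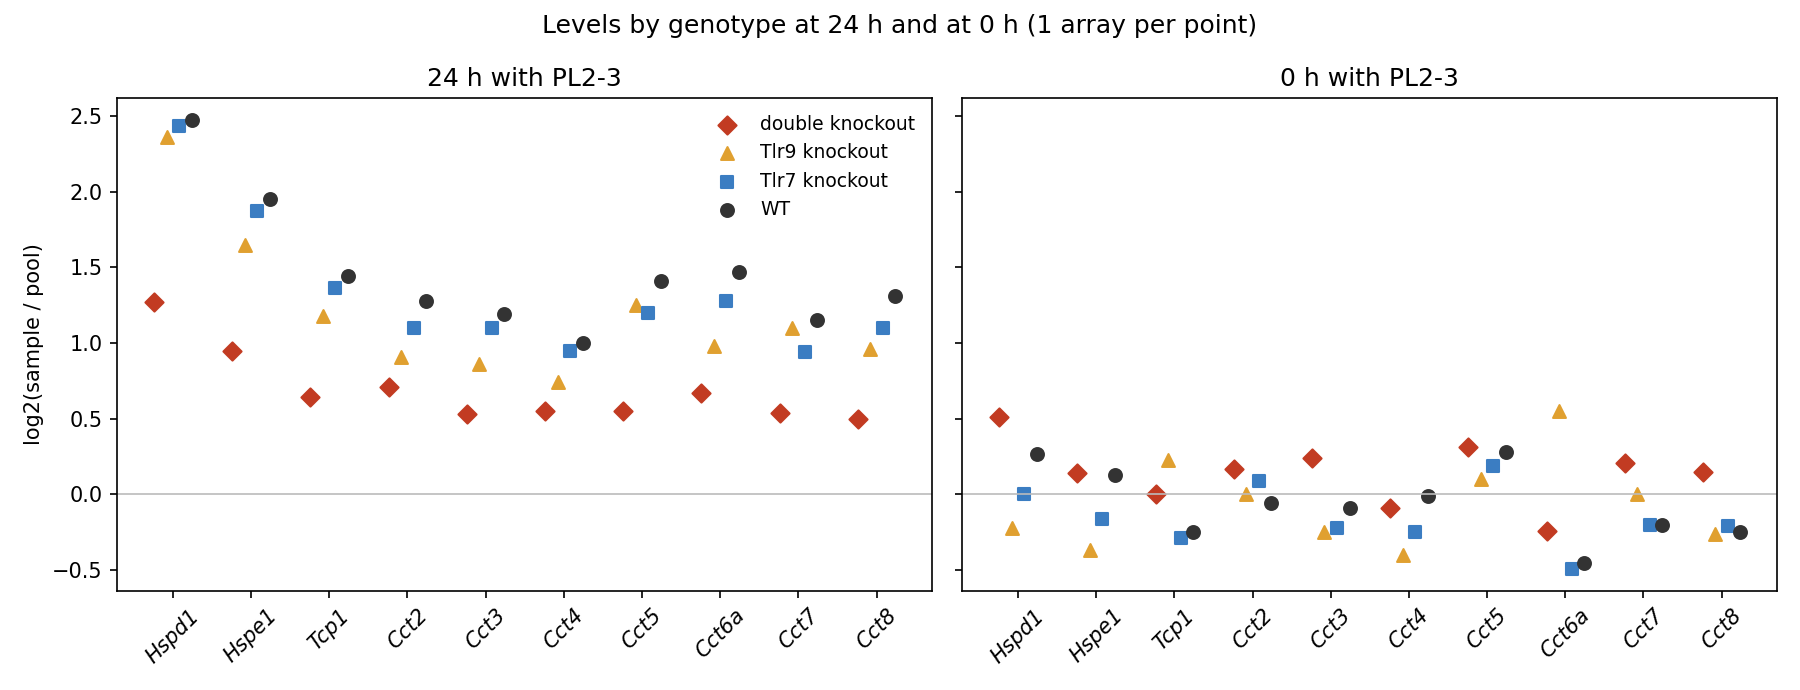
Level of each gene (log2 of sample over pool) in the double knockout, Tlr9 knockout, Tlr7 knockout and WT, 1 array per point, at 24 h (left) and at 0 h (right). At 24 h every double knockout point is the lowest of its gene, and at 0 h 7 of the 10 are the highest.

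Hspd1 in the double knockout was 0.51, 2.58, 1.27 and 1.31 at 0, 6, 24 and 42 h. At 6 h it lay within the range of the other genotypes (2.57 to 2.67), and at 24 h below all of them (2.36 to 2.47). Hspd1 was 4.2-fold its own 0 h level at 6 h and 1.69-fold at 24 h in the double knockout, against 5.97-fold, 5.38-fold and 4.57-fold at 24 h in Tlr9 knockout, Tlr7 knockout and WT. The share of its own 6 h log2 change that was left at 24 h was 36.5% in the double knockout, against 92.3%, 90.8% and 95.5%. The response difference, double knockout less the mean of the other 3, was -0.52 ± 0.22 at 6 h (limma adjusted p = 1), -1.64 ± 0.22 at 24 h (adjusted p = 0.0376) and -0.77 ± 0.22 at 42 h (adjusted p = 0.618). This fit used all 16 arrays with 6 residual degrees of freedom, to which the double knockout arrays add nothing, so they are assumed to vary like the others.

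Hspd1 was the only one of the 10 called at 24 h, where 0.085% of 23541 genes were called lower (0.287% of those well above background on every array). None was called at 6 h (0.0298% of all genes called, and 4 of the 10 at an unadjusted p under 0.05, against 3.73% of all genes) or at 42 h (0.0383%, and 6 of the 10 unadjusted, against 6.16%). At 24 h 8 of the 10 were lower at an unadjusted p under 0.05, against 6.98% of all genes. The estimates at 24 h were all below 0, with a median of -0.87 against -0.01 over all genes. Hspe1 had -1.15 ± 0.23 (limma adjusted p = 0.0773), Cct8 -1.01 ± 0.18 (adjusted p = 0.0687) and Cct3 -0.94 ± 0.19 (adjusted p = 0.0803). Cct6a had the smallest, -0.47 ± 0.54 (adjusted p = 0.738).

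The 0 h arrays add to the response difference of Hspd1, whose double knockout value was the highest of the 4 at 0 h. Compared as levels at 24 h without the 0 h arrays, Hspd1 was lower in the double knockout by 1.15 ± 0.14 log2 (limma adjusted p = 0.0256), Hspe1 by 0.88 ± 0.14 (adjusted p = 0.0314), Cct5 by 0.74 ± 0.14 (adjusted p = 0.0426) and Cct8 by 0.62 ± 0.13 (adjusted p = 0.0486), which makes 4 of the 10 genes, against 1.87% of all genes lower. Cct5 was 0.55 in the double knockout at 24 h, against 1.25, 1.20 and 1.41 in Tlr9 knockout, Tlr7 knockout and WT, and its 0 h levels were 0.31, 0.10, 0.19 and 0.28 in the same order. Hspe1 was 0.95 at 24 h, against 1.65, 1.87 and 1.95, and Cct8 0.50, against 0.96, 1.10 and 1.31. For Cct5 21.5% of the 6 h log2 change was left at 24 h in the double knockout, against 84.4%, 65.6% and 85%. By limma no level difference of the 10 passed at 6 h (0.00871% of all genes called, none of the 10 at an unadjusted p under 0.05, against 5.26%) or at 42 h (0.131%, 1 of the 10 unadjusted, against 10.4%).

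The Hspd1 difference at 24 h did not pass without WT (-1.75, limma adjusted p = 0.487), without the Tlr7 knockout (-1.63, adjusted p = 0.415), with median centring (-2.39), a normexp offset of 10 (-1.61), processed signals (-1.64) or scale normalization (-1.50). Without the Tlr9 knockout 8 of the 10 genes were called lower, against 6.45% of all genes. The B cell markers, which fell with stimulation, had a median of -1.48 in the double knockout at 24 h, against -2.49, -2.66 and -2.88 in Tlr9 knockout, Tlr7 knockout and WT, and their part in the result was not tested.

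Comparisons within 1 slide, averaged over the stimulated times, gave no call. The times stood in for replicates in these fits, so a difference at 24 h alone was not tested within a slide. Each fit used the stimulated arrays of every genotype, so its residual spread comes from both slides and not from 1 slide alone. Over the 3 stimulated times, the double knockout against the Tlr9 knockout (slide 2) and the Tlr7 knockout against WT (slide 1) gave 0 of the 10 genes by limma, with 2 and 1 at an unadjusted p under 0.05, against 5.89% and 1.84% of all genes (0.0435% and 0.00435% of 22966 genes were called). Cct7, a subunit of the ring, had the lowest unadjusted p in both, with -0.34 ± 0.10 (adjusted p = 0.82) and -0.31 ± 0.10 (adjusted p = 1). Hspd1 had -0.44 ± 0.22 in the double knockout over the Tlr9 knockout (adjusted p = 0.82), an average over times at which it differed little (6 h) and much (24 h). The Tlr9 knockout against WT, which also compares the slides, gave 0 of the 10 by limma (2 at an unadjusted p under 0.05, against 9.27% of all genes, and 0.0566% of all genes called), with estimates from -0.32 to -0.11.

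The Tlr9 knockout response was set against that of Tlr7 knockout and WT cells, and 2 subunits were called lower, in a fit whose residual comes from Tlr7 knockout and WT alone. Cct6a was 0.55, 1.63, 0.98 and 0.46 at 0, 6, 24 and 42 h in the Tlr9 knockout. It was -0.49, 1.81, 1.28 and 0.90 in the Tlr7 knockout and -0.45, 1.87, 1.47 and 0.67 in WT. The 0 h value is about 1 log2 above the other 2 genotypes, and the stimulated values lie slightly below them. The response difference of Cct6a was -1.23 ± 0.20 at 6 h, -1.42 ± 0.20 at 24 h and -1.35 ± 0.20 at 42 h (limma adjusted p = 0.0152, 0.00985 and 0.00441, 3 residual degrees of freedom). Cct6a was the only one of the 10 called at 6 and 24 h, where 1.39% and 1.43% of all genes were called lower (2.44% and 2.35% of those well above background on every array). At 42 h, where 7.16% were, Tcp1 was also called, at -1.17 ± 0.18 (adjusted p = 0.00486). Cct6a had -1.28 and -1.42 at 6 and 24 h with an offset of 10 (limma adjusted p = 0.0851 and 0.0736). With processed signals it had -1.36, -1.61 and -1.46 (adjusted p = 0.12, 0.112 and 0.052), and Tcp1 was not called there either. With median centring 6 of the 10 were called at 24 h, against 17.8% of all genes lower.

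The Cct6a difference rests on the 0 h array. Sample and pool signals here and below are values after loess and Aquantile normalization between arrays, not raw intensities. On the Tlr9 knockout 0 h array the Cct6a spot had a pool signal (Cy3) of 9.18 log2, against 10.21 to 10.48 on the other slide 2 arrays and 10.83 to 11.12 on slide 1, although the pool is the same RNA. The Tcp1 pool signal there was 11.92, against 12.35 to 12.78 on all other arrays. Compared as levels without the 0 h arrays, Cct6a was not called at any time (-0.21 ± 0.15, -0.40 ± 0.15 and -0.33 ± 0.15 at 6, 24 and 42 h, with 1.09%, 1.24% and 9.97% of all genes lower). Tcp1 at 42 h was, at -0.68 ± 0.13 (limma adjusted p = 0.014). Without that 0 h array the rise of Cct6a over 0 h was 2.34, 1.82 and 1.25 at 6, 24 and 42 h, against 1.90, 1.37 and 0.81 with it.

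**Figure D4:**
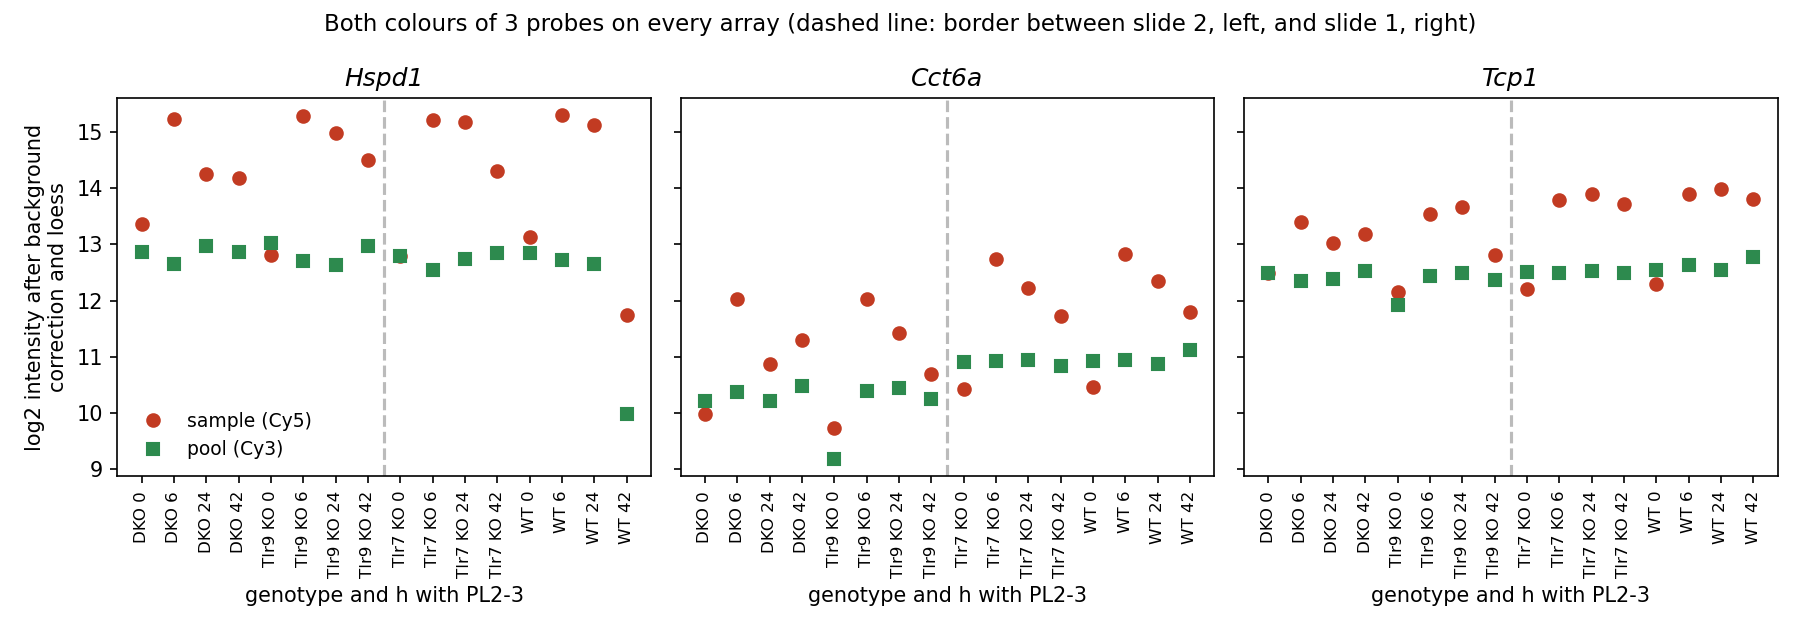
Log2 intensity of the sample (Cy5) and of the pool (Cy3) at the Hspd1, Cct6a and Tcp1 probes on each array, by genotype and hours with PL2-3, with a dashed line between the slides. Intensities are after background correction, loess and Aquantile normalization between arrays. The pool is the same RNA on each array, and its signal is down to 9.98 for Hspd1 on the WT array at 42 h and to 9.18 for Cct6a on the Tlr9 knockout array at 0 h.

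The Hspd1 spot of the WT array at 42 h was dim in both colours, with a pool signal of 9.98 log2 against 12.55 to 13.02 on the other arrays and a sample signal of 11.74. Its ratio, 1.76, was the highest of the 4 genotypes at 42 h (1.31, 1.54 and 1.47 in double knockout, Tlr9 knockout and Tlr7 knockout). Without this array the rise of Hspd1 at 42 h was 1.53. Over the 16 arrays the pool signal varied with an SD of 0.72 for Hspd1, 0.48 for Cct6a and 0.12 to 0.21 for the main probes of the other 8 genes.

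The subunits also followed one another from array to array. Over the 16 arrays, the correlation (Pearson's r) between the levels of 2 CCT subunits ranged from 0.85 to 0.992 over 28 pairs, with a median of 0.933, and over the 12 stimulated arrays alone from 0.654 to 0.985, with a median of 0.907. The lowest values were those of Tcp1, with Cct3 over all arrays (0.85) and with Cct7 over the stimulated ones (0.654). CCT subunits with Hspd1 or Hspe1 gave a median of 0.921, or 0.783 over stimulated arrays. Hspd1 with Hspe1 gave 0.95, or 0.765 over stimulated arrays. These points share arrays, pool and time course, and the values are descriptions. Of 15524 other genes, the 5 closest to the mean CCT profile were Minpp1, Lap3, Ppp1r14b, Snhg1 and Nme2 (r = 0.993 to 0.985). The 5 closest to Hspd1 were Nop58, Rsl1d1, Npm1, Timm8a1 and Lap3 (r = 0.989 to 0.984).

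The other genes of the folding pathways were set beside the members to show what moved with them. By 6 h 22.9% of all genes rose and 23.9% fell. Of the genes of mitochondrial protein import, which feed the matrix where HSP60 works, 13 of 13 rose at 6 h, with a median of 1.70, 12 of 13 at 24 h, with a median of 1.37, and 11 of 13 at 42 h, with a median of 0.76. Timm8a1, a small carrier of the intermembrane space, rose by 2.97 ± 0.12 (limma adjusted p = 2.36e-07) and Timm17a, a subunit of the inner membrane channel, by 1.79 ± 0.12 (adjusted p = 2.49e-06) at 6 h. Of the mitochondrial chaperones and proteases, 10 of 13 rose and 1 fell at 6 h. Hspa9, the matrix HSP70 that hands proteins to HSP60, rose by 2.68 ± 0.10 (adjusted p = 1.93e-07), beside 2.59 for Hspd1, and Trap1, the matrix HSP90, by 1.53 ± 0.12 (adjusted p = 6.67e-06). Spg7, a protease subunit, fell by 0.58 ± 0.14 (adjusted p = 0.00668), but had 0.19 with median centring.

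**Figure D5:**
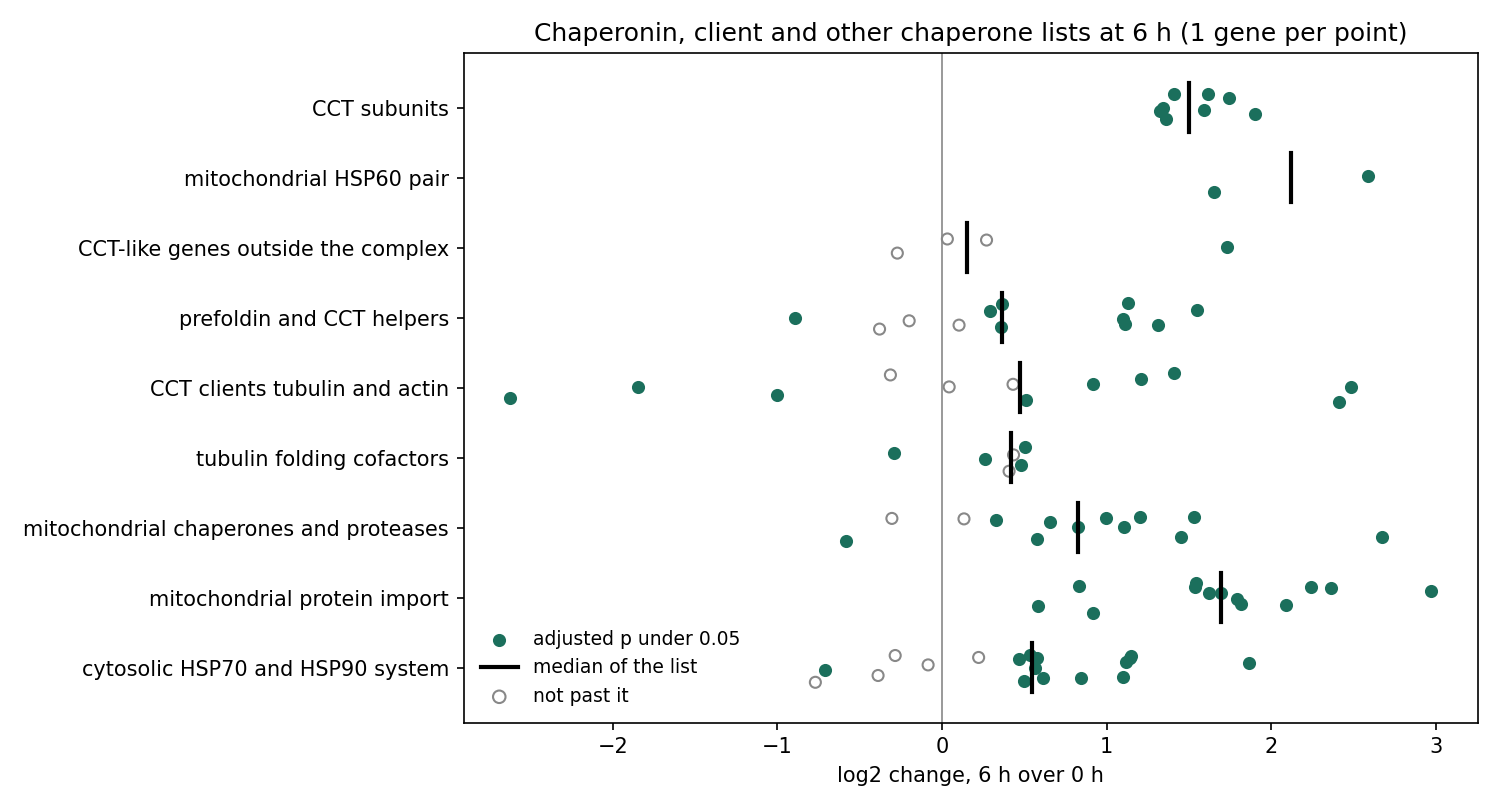
Log2 change at 6 h over 0 h (limma, 12 arrays) of every tested gene in each list, 1 point per gene, filled where the adjusted p is under 0.05, with a bar at the list's median. The CCT subunits lie between 1.32 and 1.90, while the CCT clients spread from -2.63 to 2.48.

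The cytosolic partners of CCT were less uniform. Of 12 prefoldin subunits and CCT helpers, 8 rose and 1 fell at 6 h, with a median of 0.36. The rises were 5 without WT, without the Tlr7 knockout, with an offset of 10 or with processed signals, and 9, with a median of 1.03, with median centring. Pfdn4, a subunit of prefoldin, which delivers clients to CCT, rose by 1.31 ± 0.15 (limma adjusted p = 5.7e-05), and Bag3, a partner of HSP70, by 1.11 ± 0.13 (adjusted p = 6.79e-05). Pfdn5, another prefoldin subunit, fell by 0.89 ± 0.12 at 6 and at 24 h (adjusted p = 2.47e-04 and 2.7e-04), but had -0.09 and 0.17 with median centring. Of 4 genes that resemble CCT subunits but lie outside the complex, 1 rose at 6 h (22.9% of all genes did): Bbs12, of a chaperonin-like complex in ciliary assembly, by 1.73 ± 0.15 (adjusted p = 9.82e-06). Bbs10, its partner, had 0.27 ± 0.10 at 6 h (adjusted p = 0.0574) and rose by 0.50 ± 0.10 at 24 h (adjusted p = 0.00283).

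The clients of CCT moved in both directions at 6 h. Of 12 tubulin and actin genes, 6 rose and 3 fell at 6 h, where 22.9% of all genes rose and 23.9% fell. At 24 h 7 rose and 2 fell. With median centring 8 rose and 2 fell at 6 h, and 9 rose and 0 fell at 24 h. With processed signals 4 rose and 3 fell at 6 h. Tubb6, a beta-tubulin, was 2.15, 2.65 and 2.58 at 6 h in Tlr9 knockout, Tlr7 knockout and WT cells, and 4.40, 4.56 and 4.62 at 24 h, against -0.08, 0.22 and 0.00 at 0 h. It rose by 2.41 ± 0.20 at 6 h and 4.48 ± 0.20 at 24 h (limma adjusted p = 8.69e-06 and 7.14e-07). Tuba1b, an alpha-tubulin, rose by 1.41 ± 0.21 and 1.94 ± 0.21 (adjusted p = 4.25e-04 and 6.48e-05). Actb, beta-actin, fell by 1.84 ± 0.16 at 6 h and 1.27 ± 0.16 at 24 h (adjusted p = 1.04e-05 and 1.31e-04), but had 0.29 at 24 h with median centring. Tubulin genes resemble one another, and signal shared between their probes was not tested. Of 6 tubulin folding cofactors, which act after CCT, 3 rose and 1 fell at 6 h. None rose (0 of 6) without WT, without the Tlr7 knockout or with processed signals, 1 with scale normalization, and 5 with median centring or without the Tlr9 knockout. Tbcd rose by 0.50 ± 0.12 (limma adjusted p = 0.00716) with all 3 genotypes in the fit, Tbcb had 0.41 ± 0.16 (adjusted p = 0.0566), and Tbcc fell by 0.29 ± 0.09 (adjusted p = 0.0272), but had 0.46 with median centring.

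Of 20 genes of the cytosolic HSP70 and HSP90 system 18 were tested, and 12 rose and 1 fell at 6 h, with a median of 0.55. Of all genes 22.9% rose and 23.9% fell. The rises at 6 h were 8 without the Tlr7 knockout, 9 with processed signals and 13 with median centring. At 24 h 8 rose and 2 fell, with a median of 0.27 (22.7% and 26% of all genes). At 42 h 2 rose and 4 fell, with a median of 0.06 (17.3% and 20.7% of all genes). At 6 h Hsp90ab1 and Hsp90aa1, the 2 cytosolic HSP90 genes, rose by 1.87 ± 0.10 and 1.15 ± 0.13 (limma adjusted p = 9.42e-07 and 8.31e-05), and Hspa8, the constitutive HSP70, by 1.10 ± 0.12 (adjusted p = 5.51e-05). Dnajb1, a J-domain partner of HSP70, fell by 0.71 ± 0.12 (adjusted p = 9.18e-04), but had 0.12 with median centring. In the double knockout at 24 h none of the genes on these lists passed the response test, in which 0.149% of all genes were called. Hsp90aa1 was -0.19 there, against 1.01, 0.82 and 0.89 in Tlr9 knockout, Tlr7 knockout and WT, a response difference of -1.68 ± 0.27 (adjusted p = 0.0618), and Hspa8 had -1.38 ± 0.24 (adjusted p = 0.0697). The median response difference at 24 h was -1.40 for the HSP60 pair, -0.83 for CCT, -0.70 for the cytosolic HSP70 and HSP90 system, -0.62 for mitochondrial import, -0.40 for mitochondrial chaperones, -0.27 for the clients, -0.24 for prefoldin and helpers, -0.01 for the CCT-like genes outside the complex and 0.16 for the tubulin cofactors. Over all genes it was -0.01.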

How the data were processed

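Per the file headers, the images were processed in Agilent Feature Extraction 10.1.1.1, with 62976 spots of which 3671 are controls. The deposited intensity values are the mean foreground and median local background of each colour, and the deposited processed signals are background-subtracted and dye-normalized intensities. The authors' deposited series matrix has the log10 ratio of those processed signals, within 0.001 in 100% of spots. Other deposited columns hold flags of 0 or 1.

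Background was corrected with normexp (offset 50) and the colours normalized by loess in limma 3.58.1 (R 4.3.3, package data.table, version 1.17.8). The sample and pool signals given for single colours were also Aquantile-normalized between arrays, which changes intensities but not ratios. Outlier-flagged spots were treated as missing. Each gene was its brightest probe, and was tested where 3 or more arrays of the fit had it well above background in Cy5 or Cy3. Probes were named by accession (27235), symbol (3581) or older symbol (565), and 24300 had none. Those kept their array name and were not left out of the genes tested, except in the search for genes of similar pattern. Tests are limma's moderated tests, 2-sided, adjusted over all genes tested by Benjamini-Hochberg, threshold 0.05. The number of arrays limits the precision. The steps were tested on simulated data. Hspa1b and Hspb8 were not tested, and 1 B cell marker is not reported here.

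Members and gene lists were chosen with earlier results of these data known. Named list genes are the 2 largest rises and the largest fall past the threshold at 24 h in each list, plus Hspa9, Hspa8 and Hsp90ab1. Genes of similar pattern are the 5 with the highest correlation. Alternatives changed the normalization, background offset, signals, dim-probe filter, probe rule, genotypes or times in the fit, or left out the 0 h arrays.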

Additional observations from a re-analysis of the deposited data

Results flagged for a closer look

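The Hspd1 response of the double knockout at 24 h was below that of the other 3 genotypes by a tested difference of -1.64 log2 (limma adjusted p = 0.0376), with the double knockout level below all 3 others. Over the alternatives the adjusted p ranged from 0.00484 to 0.487.

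The Cct6a response of the Tlr9 knockout was below that of WT and Tlr7 knockout cells, by a tested difference of -1.23 at 6 h, -1.42 at 24 h and -1.35 at 42 h (limma adjusted p = 0.0152, 0.00985 and 0.00441). The 3 differences share 1 array, the Tlr9 knockout at 0 h, on which the Cct6a pool signal was at its lowest. As levels without the 0 h arrays they were -0.21, -0.40 and -0.33, none called, and none was called with processed signals (adjusted p = 0.12, 0.112 and 0.052). The Tcp1 response of the Tlr9 knockout at 42 h was below by -1.17 (adjusted p = 0.00486), and it shares that 0 h array.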

How the results depend on the processing

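The rise of all 10 genes at 6 h held in every alternative. At 24 and 42 h 9 or 10 rose in all, except that 8 did at 42 h without WT and without the Tlr7 knockout. Leaving out 1 genotype at a time gave 10, 9 to 10 and 8 to 10 rises at 6, 24 and 42 h, 0 to 5 falls between 6 and 24 h, 0 to 8 between 24 and 42 h, and 0, 0 to 8 and 0 to 2 double knockout calls at 6, 24 and 42 h. With median centring the count between 6 and 24 h was 1, a gene called higher, that between 24 and 42 h 10, the double knockout at 24 h 0 and the Tlr9 knockout at 24 h 6. Cct5, which fell between 6 and 24 h in the main fit, had an estimate of 0.03 there. The reversed list genes with median centring were Dnajb1 (0.12 and 0.09 at 6 and 24 h), Spg7 (0.19 and 0.41), Tbcc (0.46 and 0.57), Actb (0.29 at 24 h) and Pfdn5 (0.17 at 24 h). With an offset of 10 the counts were 2 between 6 and 24 h, 0 for the double knockout at 24 h and 0 for the Tlr9 knockout at 6 and 24 h. With processed signals they were 0 between 6 and 24 h, 0 between 24 and 42 h, 0 for the double knockout at 24 h and 0 for the Tlr9 knockout at 6, 24 and 42 h. With all 4 genotypes they were 7 and 0 for the 2 falls. Scale normalization, chosen after seeing the data, gave 0 between 24 and 42 h, 0 for the double knockout at 24 h and 2 for the Tlr9 knockout at 6 and 24 h. Without the WT array at 42 h, also chosen after seeing the data, no fall between 24 and 42 h was called (0). As levels without the 0 h arrays, the double knockout had 4 calls at 24 h, and the Tlr9 knockout 0, 0 and 1 at 6, 24 and 42 h. Without the dim-probe filter the Tlr9 knockout had 2 calls at 24 h. The cause of these changes was not tested. Aquantile left every ratio as it was, by construction. No paired analysis was possible because each group has 1 array and the labels carry no replicate numbers to use as a block. The genotype term of the time fits already sets times against each other within a genotype. With 1 array per group, the spread comes from differences between genotypes or times. The main probes were well above background on every array, and whether signal over background limited any result was not tested.

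Counts over all genes moved too. Between 24 and 42 h 1275 genes were called, 4692 with median centring, 707 with an offset of 10, 4 with processed signals, 1 without the WT array at 42 h, 0 with scale normalization or with all 4 genotypes, and 0 to 5322 leaving out a genotype. For the double knockout at 24 h it was 35, against 7 with median centring, 12 with an offset of 10, 9 with processed signals, 8 with scale normalization, 66 for probes above background on every array, 131 without the Tlr9 knockout array at 0 h, 879 as levels and 0 to 3072 leaving out a genotype. For the Tlr9 knockout at 6, 24 and 42 h it was 1328, 1333 and 3540, against 299, 4386 and 2006 with median centring, 88, 39 and 1744 with an offset of 10, and 0, 0 and 915 with processed signals. The share called higher was 76.4%, 75.9% and 54.6% there, against 27.1%, 8.8% and 25.6% with median centring.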
